A study of Mus musculus with 6 samples.

Results

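The clustered protocadherins of the mouse were examined in brain RNA-seq libraries of mice given a viral vector in the medial prefrontal cortex (mPFC). The members were chosen by name, as every gene of the count table named Pcdha, Pcdhac, Pcdhb, Pcdhga, Pcdhgb or Pcdhgc followed by a number. The rule found 58 of the 52390 genes listed. The alpha cluster had 14 of these genes, the beta cluster 22 and the gamma cluster 22. The rule uses names and no measured value.

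The 6 libraries came from wild-type male C57BL/6 mice, a common inbred strain, that were injected at the age of 8 weeks. 3 control mice received an empty adeno-associated virus (AAV) vector and 3 AP1AR-DT OE mice received a recombinant AAV carrying AP1AR-DT, a human long noncoding RNA linked to bipolar disorder in the study. AP1AR-DT was placed behind the neuronal human synapsin I promoter, and the vector also carried EGFP under the CMV promoter. The labels name the tissue as brain, the paper's results name the mPFC and its methods name cortical tissue. The control libraries, numbered 1 to 3, held 42061721, 48478873 and 49957663 counts. The AP1AR-DT OE libraries held 53284736, 54668294 and 51374941 counts, and they are called A, B and C because their columns do not say which mouse each came from. The level of AP1AR-DT itself was not checked here, because the table lists only mouse genes.

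Clustered protocadherins are cell-surface proteins of the cadherin superfamily. Each neuron uses a small set of them, chosen largely at random by promoter choice, and the set gives the neuron a surface identity that lets its own branches recognise and avoid each other. An alpha or gamma transcript joins 1 variable first exon to constant exons that all transcripts of the cluster share, while a beta gene has its own single exon. The C-type isoforms Pcdhac1, Pcdhac2, Pcdhgc3, Pcdhgc4 and Pcdhgc5 lie at the downstream ends of the alpha and gamma clusters and are used more constantly than the others. Promoter choice involves the DNA-binding protein CTCF, the ring-shaped cohesin complex and DNA methylation.

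All 58 members were on the plus strand of chromosome 18 of the GRCm38 genome in the GENCODE vM21 annotation. The alpha cluster ran from 36930184 to 37187661, the beta cluster from 37264938 to 37524479 and the gamma cluster from 37661793 to 37841873. Of the 100-base stretches in an alpha member's longest transcript, 47.7 to 58.4% also occurred in another alpha member, with a median of 55.1%. The beta members shared 0 to 7.73% with one another, with a median of 0.207%. The gamma members shared 5.55 to 64.0%, with a median of 44.1%. Pcdhgc5 was the lowest, while its longest protein-coding transcript shared 43.6%. By longest protein-coding transcripts the gamma cluster shared 14.4 to 64.0%, with a median of 44.1%. The lowest was then Pcdhgb8, annotated as a polymorphic pseudogene. The count of an alpha or gamma member can therefore contain reads from constant exons that its cluster shares. How such reads were divided among the members when the counts were made was not examined. A difference between single members is thus less certain than a difference between cluster totals. The 3 annotated genes that start in the alpha cluster and end in the gamma cluster held at most 1 count in any library.

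The gamma total was far above the alpha and beta totals, and the groups differed less than that. These totals were not scaled for the number or length of the genes. Summed over its members, the gamma cluster held 942 ± 93.9 normalized CPM (counts divided by TMM-scaled library sizes; SD, n = 3) in the control libraries and 1071 ± 38.9 in the AP1AR-DT OE libraries. The control libraries held 1042, 929 and 856, and the AP1AR-DT OE libraries held 1076, 1107 and 1030. The highest control library was above AP1AR-DT OE library C, so the groups overlapped. This holds for the counts as listed, because the totals leave out genes annotated on the opposite strand of members' exons. Of these, BC037039, described below, held 0.522 to 5.99 normalized CPM in the control libraries. It held 34.3, 0.853 and 40.2 in AP1AR-DT OE libraries A, B and C. The alpha total was 129 ± 3.30 in control and 133 ± 8.80 in AP1AR-DT OE libraries, and the beta total was 148 ± 15.2 and 146 ± 4.11. Both pairs of groups overlapped. Without Pcdhgc5, the gamma total was 789 ± 60.8 in control and 816 ± 23.4 in AP1AR-DT OE libraries. In bulk tissue, fewer cells of a type and less RNA per cell cannot be told apart.

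Members of a cluster differed in level. Levels between members are compared as normalized CPM per kilobase of the longest transcript. In the alpha cluster Pcdhac2, the C-type isoform known for its part in the spacing of serotonergic axons, stood first, with 9.99 ± 1.07 in control and 11.1 ± 0.974 in AP1AR-DT OE libraries (SD, n = 3). The next alpha member, Pcdha12, was at 2.32 ± 0.476 and 2.34 ± 0.922, and the lowest, Pcdha8, was at 0.200 ± 0.0191 and 0.218 ± 0.152. Pcdha8 held 39, 54 and 58 counts in the control libraries and 68, 103 and 16 in the AP1AR-DT OE libraries, whose range enclosed that of the controls. Pcdhac2 alone held 41.5 to 49.1% of the alpha counts in the control libraries and 47.6 to 50.2% in the AP1AR-DT OE libraries. The other C-type isoform of the cluster, Pcdhac1, was 11th of 14 in level.

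In the beta cluster Pcdhb9 was highest, at 5.35 ± 1.03 normalized CPM per kilobase in control and 5.62 ± 1.04 in AP1AR-DT OE libraries. Its 3 control libraries held 19.1, 12.9 and 17.0 normalized CPM and its AP1AR-DT OE libraries 20.5, 14.2 and 16.8, so its groups overlapped across nearly their whole range. At the other end, Pcdhb1 was at 0.258 ± 0.132 and 0.0918 ± 0.0722 normalized CPM per kilobase.

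In the gamma cluster 3 members stood above the rest. Pcdhgc5, a C-type isoform of the mature cortex, was at 26.5 ± 6.73 normalized CPM per kilobase in control and 44.1 ± 2.67 in AP1AR-DT OE libraries. Pcdhgc3, which is used broadly and acts in dendrite branching, was at 27.1 ± 2.73 and 21.4 ± 4.25. The B-type isoform Pcdhgb6 was at 23.1 ± 3.47 and 23.6 ± 3.29. In each control library Pcdhgc3 was above Pcdhgb6, and Pcdhgc5 was above both in control 1 and between them in controls 2 and 3. In each AP1AR-DT OE library Pcdhgc5 was above both. Pcdhgc4, the isoform known for neuronal survival, was 11th of 22 with 6.80 ± 2.27 and 6.80 ± 1.16. Counted per kilobase of total exon length in place of the longest transcript, the mean over all libraries was 26.8 for Pcdhgc5, 23.4 for Pcdhgb6 and 20.7 for Pcdhgc3, so that Pcdhgb6 moved above Pcdhgc3.

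**Figure D1:**
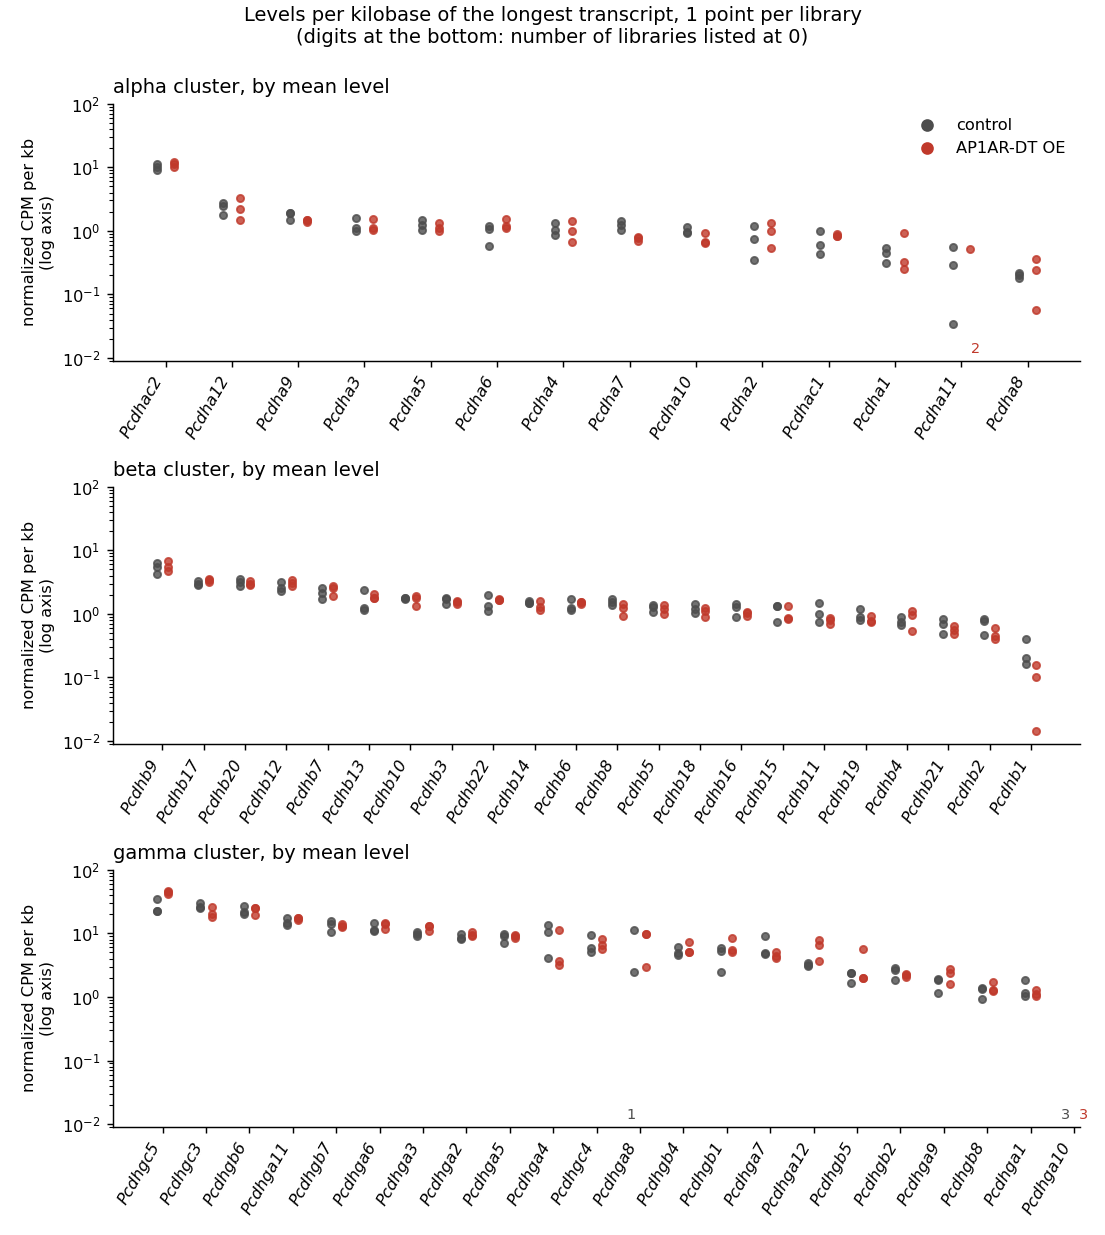
Normalized CPM per kilobase of the longest transcript (log axis) of each clustered protocadherin, with 1 point per library in grey for control and red for AP1AR-DT OE, ordered by mean level within each cluster. Pcdhac2, Pcdhb9 and Pcdhgc5 lead their clusters, and the digits at the bottom give the number of libraries in which a member is listed at 0, which is 2 for Pcdha11, 1 for Pcdhga8 and 6 for Pcdhga10.

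To ask which members differed between AP1AR-DT OE and control mice, the whole table was fitted with edgeR's quasi-likelihood test. Differentially expressed genes (DEGs) had an unadjusted P under 0.05 and an absolute log2 fold change above 0.32, the thresholds of the study. Of the 58 members, 57 passed the filter on low counts. 4 of them were DEGs. Pcdhgc5, Pcdhga12 and Pcdhga3 of the gamma cluster were higher in AP1AR-DT OE mice, and Pcdha7 of the alpha cluster was lower. Over all 21844 genes tested 12.2% were DEGs, 5.1% higher and 7.15% lower, so the members' count of 4 in 57 was not above that background. No member had an adjusted P under 0.05 by edgeR, which called 0.0275% of all genes at that level, or by limma-voom, while DESeq2 gave Pcdhgc5 and Pcdhga12 adjusted P-values of 0.0128 and 0.0318 and called 2.06% of all genes at that level.

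**Figure D2:**
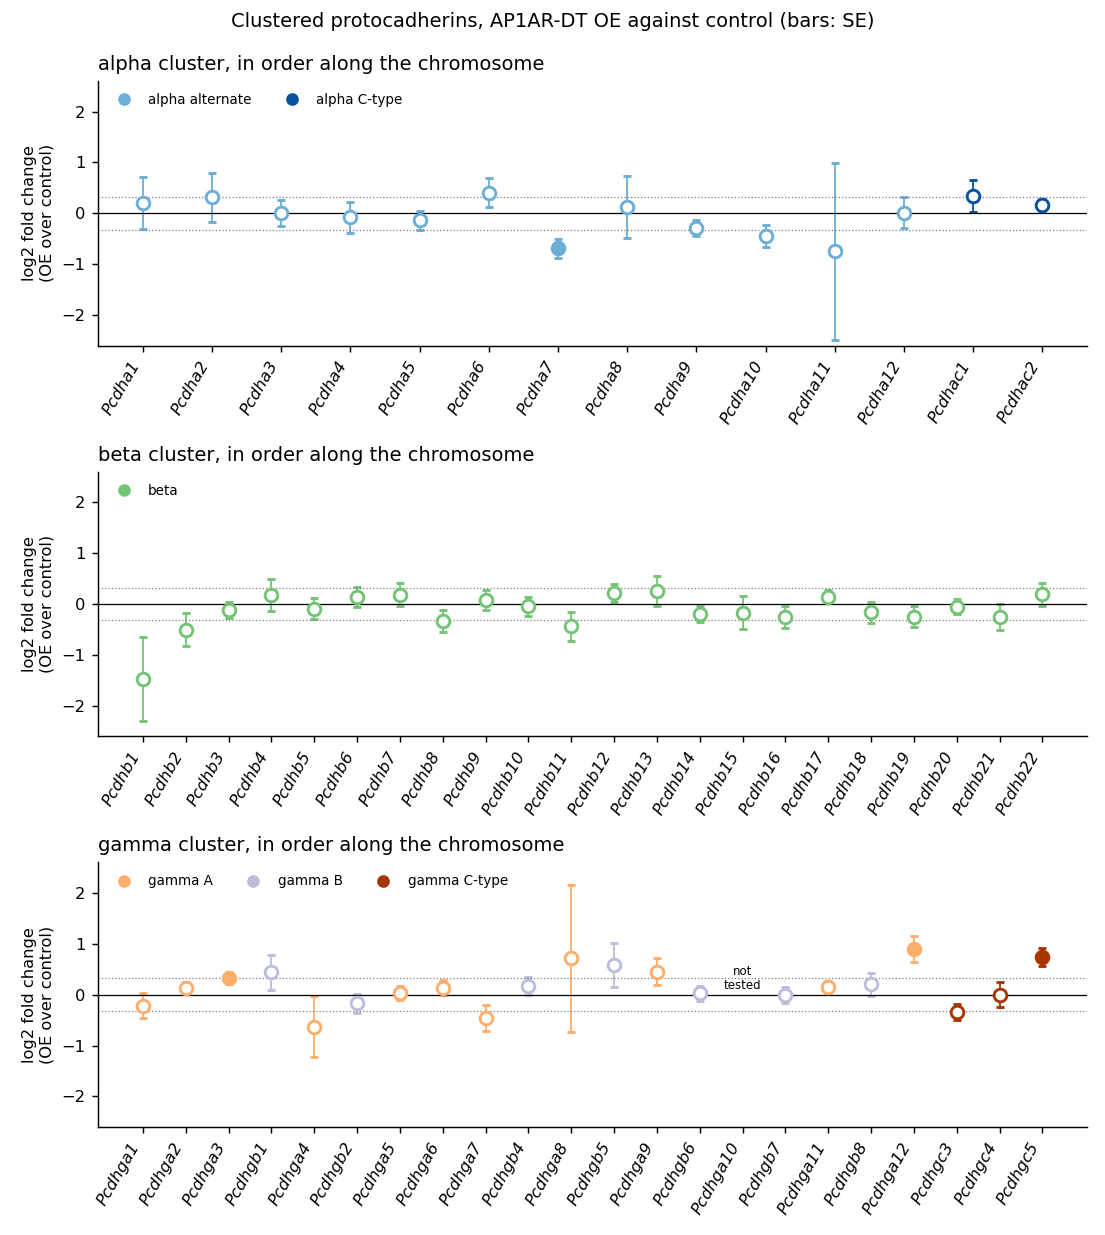
Log2 fold change (AP1AR-DT OE over control) with its SE from edgeR for each clustered protocadherin, in order along chromosome 18, with filled points for DEGs, open points for other tested members and dotted lines at a log2 fold change of 0.32 in either direction. The 3 filled points above 0 are all in the gamma cluster, 2 of them (Pcdhga12 and Pcdhgc5) near its downstream end. The widest bars belong to Pcdha11 and Pcdhga8, listed at 0 in some libraries, and to Pcdhb1, held at very few counts. Pcdhga4, which is listed at 0 in no library, also has a wide bar (SE 0.594).

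Pcdhgc5 had the most counts of any member and the smallest P. The control libraries held 198, 130 and 132 normalized CPM, and the AP1AR-DT OE libraries held 257, 269 and 238. Every AP1AR-DT OE library was above every control library, with the gap set by control 1. The means were 153 ± 38.9 and 255 ± 15.4 (SD, n = 3), a ratio of 1.66. The log2 fold change was 0.73 (SE 0.174, adjusted P = 0.295 by edgeR). It had a P under 0.05 in 17 of 17 fits, in which the log2 fold change ran from 0.60 to 0.96. The 17 were the main fit and alternatives drawn from the same 6 libraries, so they were not independent. In 1 of them only counts of other genes were changed. Pcdhgc5 took 14.0 to 19.0% of all gamma counts in the control libraries and 23.2 to 24.3% in the AP1AR-DT OE libraries. The protein is known to reach GABAergic synapses of mature cortical neurons. The gene (ENSMUSG00000102543) is the most downstream of the cluster, at 37819513 to 37841873.

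The markers of cell types and brain regions also differed between these libraries. The summed level of 4 excitatory neuron markers (Slc17a7, Neurod6, Tbr1 and Camk2a) was 1095 to 1906 normalized CPM in the control libraries and 1629 to 2760 in the AP1AR-DT OE libraries. Their sums were 1906, 1095 and 1873 in controls 1 to 3, where Pcdhgc5 was at 198, 130 and 132 normalized CPM. In libraries A to C the sums were 2287, 2760 and 1629, and Pcdhgc5 was at 257, 269 and 238. Such a sum is led by its most abundant markers, and single markers can order the libraries otherwise. Control 3 stood apart by 6 choroid plexus markers, at 3903 against 45.6 to 62.7 in the other libraries, and by 5 oligodendrocyte markers, at 9831 against 4542 to 5824. Hypothalamic markers were at 482 in control 2 and 67.1 in control 3, against 3.71 to 8.27 elsewhere. Cerebellar markers were at 60.2 in control 2 and 71.4 in control 3, against 11.9 to 21.3 elsewhere. Thalamic markers were at 445 in control 3, against 101 to 147 elsewhere. Inhibitory neuron markers summed to 2034, 1685 and 1010 in controls 1 to 3 and to 1819, 1947 and 2084 in libraries A to C. 5 astrocyte markers summed to 1813 to 2015 in the control and 1703 to 1755 in the AP1AR-DT OE libraries, and 4 endothelial markers to 57.2 to 65.1 and 68.4 to 105, so the groups were apart for both. Among the AP1AR-DT OE libraries, A stood out by 5 striatal markers, at 1138 against 119 to 552 elsewhere, and C by 4 markers of olfactory cells and migrating neuroblasts, at 130 against 34.0 to 55.4. The 3 serotonergic markers summed to 0.921 to 1.12 in the control and 0.471 to 0.629 in the AP1AR-DT OE libraries, near 0 in both. Without control 2 the log2 fold change of Pcdhgc5 was 0.63, and without control 3 it was 0.65. Each of these fits kept the other library, so they cannot show what leaving out both would give. The part of the cell mixture in this difference was not tested.

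Pcdhga12 had the highest log2 fold change of the 57 tested members. The control libraries were close together at 15.6, 17.4 and 16.4 normalized CPM, while the AP1AR-DT OE libraries spread over 39.8, 33.3 and 19.0. The groups did not overlap, but library C lay just above control 2. The means were 16.5 ± 0.927 and 30.7 ± 10.7, with a log2 fold change of 0.90 (SE 0.256, adjusted P = 0.295 by edgeR). It had a P under 0.05 in 17 of 17 fits, and the log2 fold change ran from 0.67 to 1.17. Pcdhga12 is the last of the A-type gamma isoforms before the C-type isoforms, at 37765580 to 37841873.

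Pcdhga3, another A-type gamma isoform, differed less. Its control libraries held 45.3, 50.0 and 43.0 normalized CPM and its AP1AR-DT OE libraries 60.7, 51.2 and 62.0. The groups were apart only by the small gap between control 2 and library B. The means were 46.1 ± 3.57 and 58.0 ± 5.92, and the log2 fold change was 0.33 (SE 0.114, adjusted P = 0.296 by edgeR), just past the size threshold. Pcdhga3 was not a DEG after a correction for GC content, where its log2 fold change was 0.25. It was also not a DEG without control 1 (0.32), without control 3 (0.30), without library A (0.30) or without library C (0.29).

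Pcdha7 was the one DEG among the members that was lower in AP1AR-DT OE mice. Its control libraries held 6.64, 5.46 and 7.61 normalized CPM and its AP1AR-DT OE libraries 4.34, 3.73 and 4.17. These correspond to 270 to 380 counts in the control and 201 to 230 in the AP1AR-DT OE libraries. Each AP1AR-DT OE library was below each control library. The means were 6.57 ± 1.07 and 4.08 ± 0.315, and the log2 fold change was −0.69 (SE 0.186, adjusted P = 0.295 by edgeR), with a P under 0.05 in 17 of 17 fits. Pcdha7 is an alternate alpha isoform from the middle of its cluster, at 36973802 to 37187657.

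**Figure D3:**
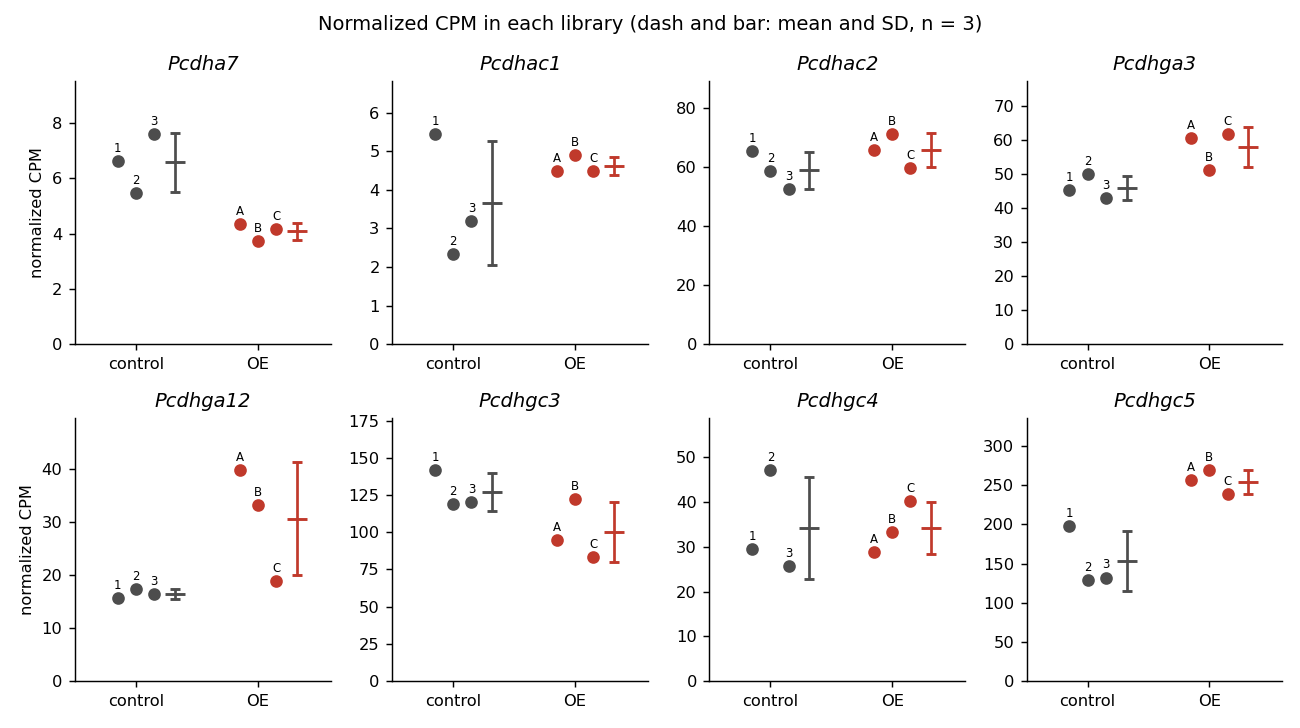
Normalized CPM of 8 clustered protocadherins in each library, with grey points for control libraries 1 to 3, red points for AP1AR-DT OE libraries A to C, and the mean and SD (n = 3) beside them, on axes that start at 0. The groups are apart for Pcdha7, Pcdhga3, Pcdhga12 and Pcdhgc5 and overlap for Pcdhac1, Pcdhac2, Pcdhgc3 and Pcdhgc4.

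The other C-type isoforms did not pass the thresholds. Pcdhac2 was at 65.2, 58.6 and 52.7 normalized CPM in control and 65.7, 71.2 and 59.8 in AP1AR-DT OE libraries, with a log2 fold change of 0.16 (SE 0.117, adjusted P = 0.539). Pcdhgc4 was at 29.6, 47.1 and 25.7 against 28.7, 33.4 and 40.3, and its means were 34.1 ± 11.4 and 34.2 ± 5.84. Pcdhac1 was at 5.46, 2.35 and 3.20 against 4.49, 4.90 and 4.50. Its control 1 was the highest library of all and its controls 2 and 3 the lowest, so that the log2 fold change was 0.34 (SE 0.313, adjusted P = 0.625) with all libraries and 0.74 without control 1, where it counted as a DEG (adjusted P = 0.247).

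Pcdhgc3, the first of the gamma C-type isoforms along the cluster, did not pass the thresholds, and its groups overlapped. The control libraries held 142, 119 and 120 normalized CPM and the AP1AR-DT OE libraries 95.1, 122 and 83.3. Libraries A and C were below all controls, while library B was between them. The log2 fold change was −0.34 (SE 0.156, adjusted P = 0.350). It became a DEG in 3 other fits, with a log2 fold change of −0.34 under library totals in place of TMM factors (adjusted P = 0.339), −0.49 with a correction for GC content (adjusted P = 0.537) and −0.51 without library B (adjusted P = 0.661).

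BC037039, a gene annotated on the minus strand, overlaps 1513 exon bases of Pcdhgc3. It held 38, 26 and 299 counts in the control libraries and 1820, 46 and 2111 in AP1AR-DT OE libraries A, B and C. The libraries with many BC037039 counts, A and C, were those with few Pcdhgc3 counts. Summed over both genes, the counts were 5802, 5940 and 6311 in control and 6864, 6632 and 6484 in AP1AR-DT OE libraries. The summed level was 129 ± 12 normalized CPM in control and 125 ± 3.55 in AP1AR-DT OE libraries, and the log2 fold change of the sum was −0.05 (SE 0.0939, adjusted P = 0.839). The use of strand in counting is not given in the sources used here, and reads of the 2 genes could not be told apart without it. Adding up such pairs was chosen after their counts were seen.

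Counts of Pcdha11 also ran largely opposite to those of Gm10545, although their sums were less even in the control libraries. Gm10545 is a gene of the opposite strand that overlaps 2446 exon bases of Pcdha11 and 531 of Pcdha12. Pcdha11 held 64, 9 and 149 counts in the control libraries and 0, 152 and 0 in the AP1AR-DT OE libraries. Gm10545 held 7, 115 and 27 counts against 176, 11 and 167. In each library 1 of the 2 genes held most of the counts, and their sums were 71, 124 and 176 in control and 176, 163 and 167 in AP1AR-DT OE libraries. The log2 fold change of the sum was 0.29 (SE 0.285, adjusted P = 0.642), while Pcdha11 alone gave −0.75 with an SE of 1.73. Pcdha11 counted alone is listed at 0 in libraries A and C, and no fold is read from it.

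Pcdhga10 was listed at 0 in all 6 libraries and was the member that was not tested. Gm26672, a gene of the opposite strand that overlaps 2613 of its exon bases and exons of Pcdhgb7, Pcdhga11 and Pcdhga12, held 652, 775 and 570 counts in control and 697, 908 and 966 in AP1AR-DT OE libraries. Its log2 fold change was 0.17 (SE 0.189, adjusted P = 0.687) with Pcdhga10 and Gm26672 summed. Whether reads of Pcdhga10 were among those counts was not tested.

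**Figure D4:**
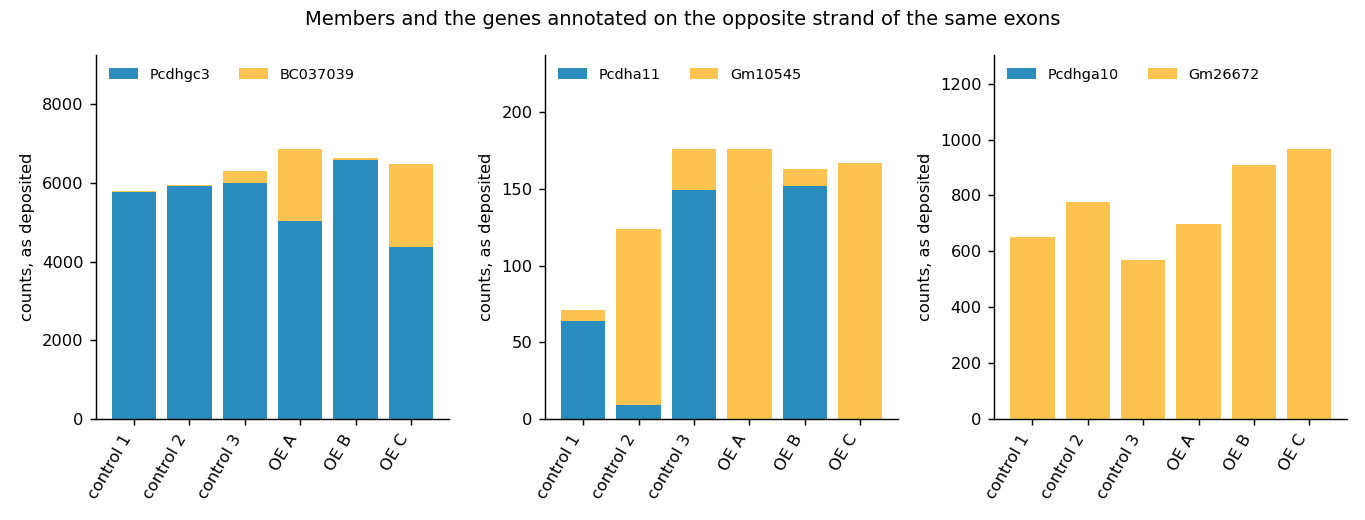
Deposited counts in each library of Pcdhgc3, Pcdha11 and Pcdhga10 (blue) stacked on those of the genes annotated on the opposite strand of the same exons, BC037039, Gm10545 and Gm26672 (yellow), on axes that start at 0. The blue part of Pcdhgc3 is smallest in AP1AR-DT OE libraries A and C, where the yellow part holds 1820 and 2111 counts, and the blue part of Pcdha11 is 0 in the same libraries.

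A pair of A-type gamma isoforms of the same strand, Pcdhga4 and Pcdhga8, also varied widely between libraries. Pcdhga8 held 2190, 0 and 573 counts in the control libraries and 2442, 2529 and 731 in the AP1AR-DT OE libraries, so that 1 library was listed at 0 while 3 others held 2190 or more. Pcdhga4 held 784, 3192 and 2492 counts in the control libraries and 790, 2909 and 916 in the AP1AR-DT OE libraries. In the control libraries their sums were 2974, 3192 and 3065, although each gene alone varied several fold. In AP1AR-DT OE libraries the sums were 3232, 5438 and 1647, with both genes high in library B and both low in library C. Pcdhga4 had a log2 fold change of −0.63 (SE 0.594) and Pcdhga8 of 0.71 (SE 1.44), and neither passed the thresholds. This pair was singled out after its counts were seen.

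By cluster, the members split as follows. In the alpha cluster 1 of 14 tested members was a DEG, 8 had a positive and 6 a negative log2 fold change, and the median was 0.01 with a range from −0.75 to 0.41. The median changed sign with the libraries used, from −0.08 without library B to 0.07 without control 3. Leaving out control 1 gave 3 alpha DEGs, adding Pcdhac1 (0.74) and Pcdha9 (−0.39). Leaving out library A added Pcdha10 (−0.62), and leaving out library B added Pcdha11, which then had 0 counts in every AP1AR-DT OE library left.

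In the beta cluster 0 of 22 members were DEGs by edgeR, DESeq2 or limma-voom, and 0 had an unadjusted P under 0.05 by edgeR. The log2 fold changes ran from −1.47 to 0.25 with a median of −0.11, and 14 of 22 were negative. The lowest was that of Pcdhb1, which held 43, 26 and 21 counts in the control libraries and 2, 22 and 14 in the AP1AR-DT OE libraries. Its normalized groups did not overlap, but the counts were few and it was not a DEG (SE 0.822, adjusted P = 0.422). The beta median was 0.03 after the GC correction, so its sign turned with that setting. Leaving out control 1 made Pcdhb13 a DEG (0.65), leaving out control 2 Pcdhb11 (−0.64) and leaving out control 3 Pcdhb22 (0.48).

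In the gamma cluster 3 of 21 tested members (14.3%) were DEGs, beside 12.2% of all genes. Of the 6245 genes between the members' lower and upper quartiles of level, 15.3% were DEGs. All 3 gamma DEGs were higher in AP1AR-DT OE mice, beside 5.1% of all genes that were DEGs and higher. These were 2 of 11 A-type members and 1 of 3 C-type members, while 0 of 7 B-type members were DEGs or had a P under 0.05 by edgeR. The log2 fold changes were positive for 15 members and negative for 6, with a median of 0.14 beside −0.01 over all genes tested. The median was 0.06 after the GC correction, and the gamma members had a median GC content of 53.0% against 47.3% in the alpha and 46.0% in the beta cluster. Leaving out library B gave 5 gamma DEGs, adding Pcdhgc3 (−0.51) and Pcdhga4 (−1.46). Leaving out library C, control 1 or control 3 gave 2, Pcdhga12 and Pcdhgc5. Without library A Pcdhga9 (0.64) took the place of Pcdhga3, and with the GC correction Pcdhgc3 (−0.49) did. The lowest gamma member tested, Pcdhga1, was at 8.53, 4.88 and 5.35 normalized CPM in control and 5.26, 4.80 and 6.02 in AP1AR-DT OE libraries, and its groups overlapped.

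Counted by groups that did not overlap, 3 of 57 members were higher and 2 lower in AP1AR-DT OE mice. The higher members were the 3 gamma DEGs, and the lower members were Pcdha7 and Pcdhb1. Over all genes tested 10.4% were higher and 12% lower without overlap, so neither count of members was above that background. An exact permutation test of 3 mice against 3 cannot give less than 0.1, two-sided. Groups that do not overlap always give that value, so the test adds nothing for these 5 members. The median SD of log2 values among the libraries of a group was 0.387 in the alpha, 0.243 in the beta and 0.252 in the gamma cluster, beside 0.217 over all genes tested and 0.198 over the 6245 genes between the members' lower and upper quartiles of level.

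**Figure D5:**
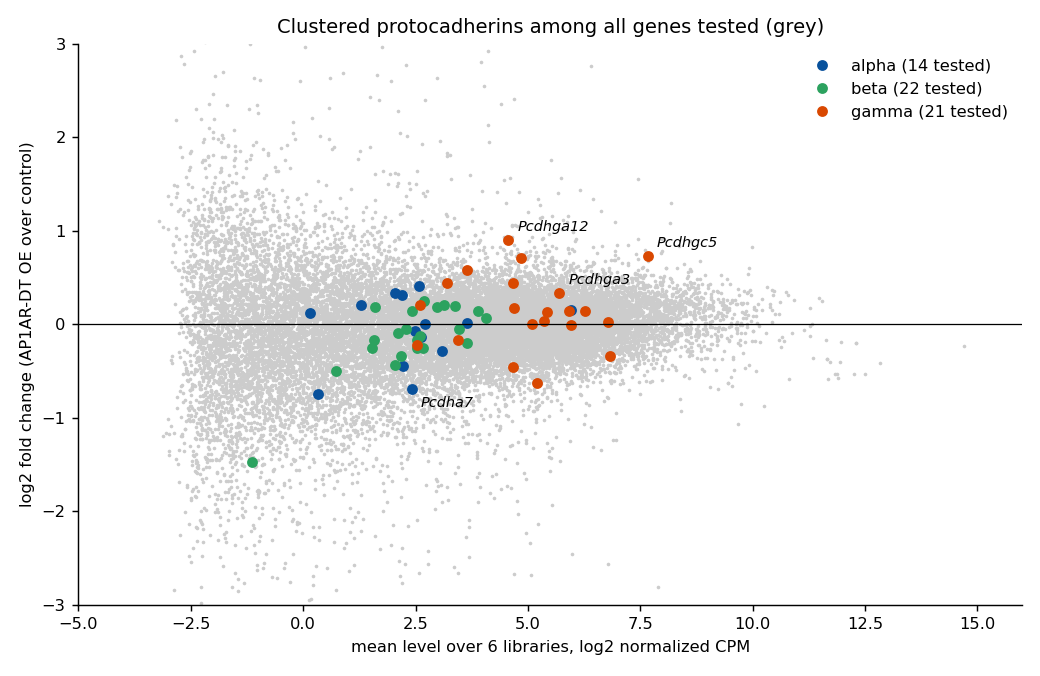
Log2 fold change (AP1AR-DT OE over control) against the mean log2 normalized CPM over 6 libraries for all genes tested (grey) and for the alpha, beta and gamma members (coloured), with the 4 DEGs named and 59 genes outside the plotted range of fold changes not shown. Most members lie within the grey cloud of genes of the same level, and Pcdhgc5 is the most abundant member, on the right.

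Of 20 genes that act in the choice and silencing of protocadherin promoters, 6 were DEGs and all 6 were lower in AP1AR-DT OE mice, which is 30% of the list beside 7.15% of all genes. Their median log2 fold change was −0.17. Of the other cohesin genes on the list, the loader partner Mau2 was at 0.14 and higher in every AP1AR-DT OE library, Pds5a was at −0.06 with overlapping groups, and Stag1 (−0.26) and Wapl (−0.32) had negative log2 fold changes but were not DEGs. These 4 were named after their values were seen. Smc1a, a subunit of the ring, was at 35.1, 36.3 and 41.6 normalized CPM in control and 28.4, 26.2 and 28.7 in AP1AR-DT OE libraries, a log2 fold change of −0.44 (SE 0.108). Its partner in the ring, Smc3, was at 21.0, 21.7 and 24.1 against 14.5, 13.1 and 17.7, a log2 fold change of −0.56 (SE 0.145). In both genes every AP1AR-DT OE library was below every control library.

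Rad21, which closes the ring, was at 123, 127 and 134 normalized CPM in control and 93.1, 96.3 and 111 in AP1AR-DT OE libraries, a log2 fold change of −0.36 (SE 0.0968). Stag2, which binds the ring to CTCF, was at 34.3, 39.3 and 45.0 against 26.4, 22.4 and 32.1, a log2 fold change of −0.55 (SE 0.165). The cohesin loader Nipbl (−0.37) and the cohesin regulator Pds5b (−0.38) were the other 2, named after their values were seen. Each of the 6 had an adjusted P of 0.295 by edgeR. Ctcf itself was at 57.1, 59.9 and 59.2 against 56.8, 51.1 and 59.9, with overlapping groups and a log2 fold change of −0.07 (SE 0.0950, adjusted P = 0.749). After the GC correction 2 of the 20 genes were DEGs, Smc1a (−0.37) and Smc3 (−0.35), while Rad21 was at −0.20 and Stag2 at −0.24.

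Of 19 genes that signal from clustered protocadherins or bind them at the membrane, 0 were DEGs by edgeR, DESeq2 or limma-voom, and 1 had an unadjusted P under 0.05 by edgeR. That gene was Nckap1, a subunit of the WAVE complex that builds branched actin, with a log2 fold change of −0.25 (SE 0.0994, adjusted P = 0.314). It was at 208, 185 and 229 normalized CPM in control and 170, 176 and 176 in AP1AR-DT OE libraries, and the groups did not overlap.

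The 10 delta protocadherins, single genes outside the clusters, held 3 DEGs (1 higher and 2 lower), which is 30% of the list beside 12.2% of all genes. Pcdh1 was higher, at 217, 192 and 183 normalized CPM in control and 255, 279 and 258 in AP1AR-DT OE libraries (log2 fold change 0.42, SE 0.0966, adjusted P = 0.295). Pcdh9 was lower, at 76.4, 89.6 and 112 against 53.4, 63.3 and 72.9 (−0.55, SE 0.172, adjusted P = 0.295). Pcdh20 was lower as well, at 26.9, 33.0 and 31.4 against 16.7, 20.5 and 27.7, with overlapping groups (−0.49, SE 0.195, adjusted P = 0.316). After the GC correction 0 of the 10 were DEGs by edgeR.

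The 34 other protein-coding genes between the clusters or within 500 kb of their ends were counted as genomic neighbours, and 30 of them were tested. 7 were DEGs, 6 higher and 1 lower, which is 23.3% of those tested beside 12.2% of all genes. Pcdh1, which lies in this region too, had the smallest P. Ik, a splicing factor gene, was lower, at 33.5, 31.9 and 33.1 normalized CPM in control and 25.2, 23.8 and 26.1 in AP1AR-DT OE libraries (log2 fold change −0.39, SE 0.0939, adjusted P = 0.295). Apbb3, which encodes an adaptor of the amyloid precursor protein, was higher, at 19.8, 22.8 and 24.7 against 30.7, 29.3 and 28.6 (0.40, SE 0.116, adjusted P = 0.295). Slc4a9, a bicarbonate transporter gene, was higher at very low levels, with 0.12, 0.10 and 0.12 normalized CPM in control and 0.226, 0.723 and 0.400 in AP1AR-DT OE libraries (1.95, SE 0.665, adjusted P = 0.295). After the GC correction 2 of the neighbours were DEGs, Slc4a9 (1.83) and Sra1 (0.44, named after its value was seen), and Pcdh1 (0.17), Ik (−0.27) and Apbb3 (0.23) were not among them.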

How the data were processed

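RNA-seq of 3 control and 3 AP1AR-DT OE mice was used, as grouped by the labels. Per the paper, the authors mapped reads to GRCm38 with Bowtie2, which does not align across introns, and took gene counts from StringTie coverage. These whole-number counts were deposited without normalization. The submitters' processing notes name mm9, TopHat2 2.0.4, HTSeq and edgeR 2.6.12 instead, and the difference is unresolved. The authors' mean, fold change and P-value columns were not used.

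Counts were tested in R 4.3.3 with edgeR 4.0.16 (filterByExpr, TMM, quasi-likelihood F-test, two-sided, Benjamini-Hochberg over 21844 genes), with DESeq2 1.42.0 and limma 3.58.1 as alternatives. Of 52390 gene identifiers, 52081 were in GENCODE vM21, including all 58 members. For 1 member, called Pcdha10 in the table, that annotation gives another name. P-values measure the spread between these mice. The edgeR, DESeq2 and limma-voom fits were tested on simulated counts. So were edgeR without the filter, with library totals and with DESeq2 size factors. The other settings, among them the GC and length corrections and the fits without 1 library, were not. GC and length corrections used splines with 5 degrees of freedom over 14001 genes. Named genes were, per cluster, up to 6 members with the smallest P under 0.05, the highest and lowest tested member per kilobase and the C-type isoforms, and up to 4 genes per other list with P under 0.05. The members and lists were chosen with earlier results of these data known. Genomic sequence of the members is not shown here. 1 excitatory neuron marker is not reported here.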

Additional observations from a re-analysis of the deposited data

How the results depend on the processing

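Of 364 alternative fits of the 23 named genes, 320 kept the direction and the side of the P threshold, 28 kept the direction and lost the threshold, 4 kept the direction and gained it, and 12 turned the direction. The 12 were of members that were not DEGs: Pcdha8 (−0.22 with limma-voom, −0.43 to 0.59 with 1 library left out), Pcdhb9 (−0.073 to 0.203 with 1 library left out), Pcdhga1 (−0.361 to 0.070 with 1 library left out) and Pcdhgc4 (−0.00047 with library totals, −0.0039 with at least 10 counts in every library, −0.0063 with counts divided by 4, −0.124 with the GC correction and −0.155 to 0.312 with 1 library left out). The count of DEGs over all genes was 2675, 1567 with the GC correction, and 1430 to 3508 when 1 library was left out. The alpha, beta and gamma clusters held 1, 0 and 3 DEGs, and with 1 library left out 1 to 3, 0 to 1 and 2 to 5. The regulator list held 6 DEGs, and 2 with the GC correction. The neighbours held 7, 2 with that correction and 4 to 10 with 1 library left out, and the delta protocadherins held 3, 0 with that correction, 5 with DESeq2 and 1 to 5 with 1 library left out. edgeR gave 6 genes an adjusted P under 0.05, limma-voom 4 and DESeq2 450. The cause of these differences was not tested. 32 of 57 tested members kept the sign of their log2 fold change in every fit. No paired analysis was possible because the AP1AR-DT OE columns carry no mouse number of the labels and the groups share fewer than 2 numbers. With 3 mice a group, the common biological coefficient of variation of 0.313 over all genes tested limits what can be told apart.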
